A study of Homo sapiens with 12 samples.

Results

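TEX14 and EFR3B are 2 of the 8579 genes measured in A375, an established human melanoma cell line labelled as BRAF-V600E. They were chosen by their count values, as 2 of the largest rises when the cells received SEL201 and OTX015 together. The COMBO and UNTREATED libraries entered that choice, so every comparison that uses either is given for the pair as a description, without a test. The study asked how transcription changes in such cells when both inhibitors are given. There are 4 groups of 3 libraries, all of this 1 line and all sampled at 72 hours: COMBO received SEL201 at 2.5 µM and OTX015 at 50 nM, OTX015 received that agent alone at 50 nM, SEL201 received that agent alone at 2.5 µM, and UNTREATED received DMSO, the drug solvent. Nothing in the labels says that libraries 1 to 3 are separate cultures, and the p-values then reflect library-to-library spread that may be technical.

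SEL201 is an inhibitor of the kinases MNK1 and MNK2, which act on the translation factor eIF4E. OTX015 blocks BET proteins, readers of acetylated chromatin that support transcription. TEX14 (testis expressed 14) encodes a kinase-like protein known from mouse germ cells, where it binds CEP55 and keeps the bridges between dividing cells open instead of letting them be cut. EFR3B encodes a plasma membrane anchor that, like its paralogue EFR3A, recruits the lipid kinase PI4KA together with TTC7 and FAM126 proteins. PI4KA makes phosphatidylinositol 4-phosphate, a precursor of the signalling lipids used by receptors at the cell surface.

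TEX14 (ENSG00000121101.16) lies on chromosome 17 and has 3 RefSeq transcripts, and EFR3B (ENSG00000084710.14) lies on chromosome 2 and has 2. The deposited counts are per gene and do not separate these transcripts. RefSeq also places IGBP1C within the interval of TEX14. In order of position LOC107985048, LOC124904154, LOC105371842 and LOC124904122 come between TEX14 and IGBP1C, so IGBP1C is not the only annotated gene there. How reads in such overlaps were counted is not given in the sources used here. Of the pair, only EFR3B matched the RefSeq promoter table (GRCh38.p14), with 2 starts. Which start these cells use was not measured. The 250 bases before the first start listed are shown. They are on the plus strand at chr2:25041826-25042075, and capitals mark each GC box, GGGCGG on either strand.

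EFR3B: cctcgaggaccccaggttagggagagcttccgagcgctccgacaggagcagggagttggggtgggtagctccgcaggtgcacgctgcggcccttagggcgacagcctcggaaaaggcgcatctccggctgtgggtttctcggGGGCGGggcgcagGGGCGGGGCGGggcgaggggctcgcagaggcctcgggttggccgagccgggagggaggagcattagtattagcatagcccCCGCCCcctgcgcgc

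This sequence is 71.2% G and C, and 81.9% of the promoter windows in the table were lower. It holds 4 GC boxes, of which 2 share a base. In the full window of 300 bases (250 before the start and 50 after) a GC box occurs in 45% of 35116 windows, and 9.06% hold 4 or more. The window of the second EFR3B start holds 1. Neither window holds CACGTG (E-box, in 7.3% of all windows), TGANTCA (AP-1, 7.7%), CCAAT (34.6%) or TATAAA (11.5%), each searched on both strands. These are matches of letters only, and no protein binding was measured here.

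The level of TEX14 stepped up in the order UNTREATED, SEL201, OTX015, COMBO without overlap between neighbouring groups. The COMBO and UNTREATED libraries entered the choice of the gene, so this order is a description. Over all genes, 18% were higher without overlap in SEL201 against UNTREATED, 18.9% in OTX015 against SEL201 and 12.2% in COMBO against OTX015. The share of genes with every step was not counted. Levels are CPM (counts scaled to a common library size) after TMM scaling, relative to the 8579 measured genes. TEX14 was at 23.7, 30.0 and 32.7 CPM in COMBO, at 16.6, 16.8 and 17.9 CPM in OTX015, at 6.56, 9.11 and 7.87 CPM in SEL201, and at 2.83, 3.61 and 4.37 CPM in UNTREATED (libraries 1, 2 and 3). The means were 28.8 ± 4.64 in COMBO, 17.1 ± 0.679 in OTX015, 7.85 ± 1.28 in SEL201 and 3.60 ± 0.768 CPM in UNTREATED (SD, n = 3 each). The COMBO values rest on 495 to 648 counts per library and the UNTREATED values on 66 to 88.

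EFR3B was higher with OTX015 than with SEL201 and highest with both agents, while its SEL201 and UNTREATED libraries overlapped. It was at 48.9, 42.2 and 58.5 CPM in COMBO, at 23.3, 22.8 and 27.0 CPM in OTX015, at 9.24, 14.1 and 14.0 CPM in SEL201, and at 8.11, 9.54 and 12.4 CPM in UNTREATED. The means were 49.8 ± 8.20 in COMBO, 24.3 ± 2.31 in OTX015, 12.4 ± 2.77 in SEL201 and 10.0 ± 2.16 CPM in UNTREATED (SD, n = 3 each). Every COMBO library was above every OTX015 library, and every OTX015 library above every SEL201 and UNTREATED library. Over all genes, 12.2% were higher without overlap in COMBO against OTX015, 18.9% in OTX015 against SEL201 and 28% in OTX015 against UNTREATED. EFR3B counts were 884 to 1134 per COMBO library and 189 to 249 per UNTREATED library.

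**Figure D1:**
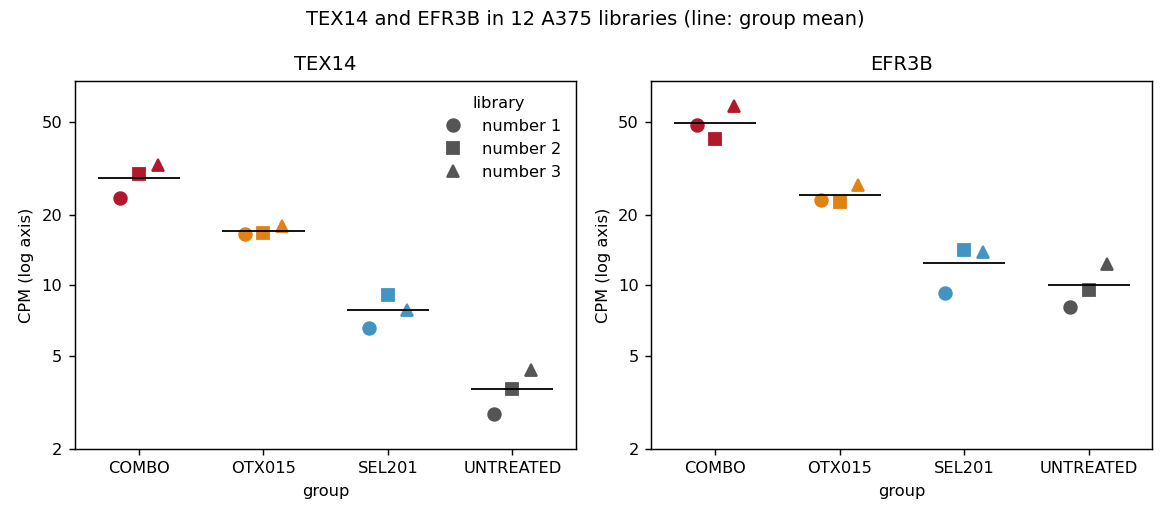
CPM on a log axis of TEX14 (left) and EFR3B (right) in each of the 12 libraries, by group, with marker shape giving the library number and a line at each group mean. The 4 groups of TEX14 do not overlap, and for EFR3B the SEL201 libraries (9.24 to 14.1 CPM) overlap the UNTREATED ones (8.11 to 12.4 CPM). The share of all genes whose 4 groups do not overlap was not counted.

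Some of the spread within groups went with the library number. TEX14 was lowest in the number 1 library of all 4 groups. In COMBO, OTX015 and UNTREATED, both genes were highest in the number 3 library, and in SEL201 both were highest in number 2. COMBO number 3 had the smallest total of all libraries, 15146071 counts over the measured genes, and totals reached 24111541. Without the 4 number 3 libraries the log2 changes of COMBO over UNTREATED were 3.05 for TEX14 and 2.37 for EFR3B, against 3.001 and 2.32 with all libraries.

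OTX015 against SEL201 shares no library with the contrast that chose these genes, and it is the contrast in which they were tested. Both genes were higher with OTX015, TEX14 by 1.13 (log2, SE 0.16, edgeR adjusted p = 0.00032), or 2.19-fold, and EFR3B by 0.98 (SE 0.18, edgeR adjusted p = 0.0016), or 1.97-fold. SE is the standard error of the log2 change, and adjusted p is Benjamini-Hochberg over all 8579 genes at a threshold of 0.05. The spread was estimated from all 12 libraries, those of COMBO and UNTREATED among them. With only the OTX015 and SEL201 groups fitted, the edgeR adjusted p was 0.00077 for TEX14 and 0.0028 for EFR3B. The test was chosen with earlier results of these data known. In this contrast 10.4% of all genes were called higher, and 18.9% were higher without overlap between the groups, as both genes were. By size of rise TEX14 ranked 3 and EFR3B 6 among the 8579 genes, of which 5 rose at least 2-fold. Between same-numbered libraries the rise was 1.84-fold to 2.51-fold for TEX14 and 1.61-fold to 2.50-fold for EFR3B.

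The next contrasts ask what each agent does alone, and they share the UNTREATED libraries with each other and with the contrast that chose the genes, so their values are descriptive. With OTX015 against UNTREATED, TEX14 was 4.77-fold higher (log2 2.25, SE 0.18). EFR3B was 2.44-fold higher with OTX015 (log2 1.29, SE 0.18). TEX14 ranked 2 and EFR3B 29 by size of rise. Neither gene overlapped between the groups, as was the case for 28% of all genes in the higher direction. All 3 same-numbered pairs were higher with OTX015, by 4.03-fold to 5.71-fold for TEX14 and by 2.17-fold to 2.85-fold for EFR3B.

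With SEL201 against UNTREATED, TEX14 was 2.18-fold higher (log2 1.13, SE 0.18) and ranked 6. Its groups did not overlap, as for 18% of all genes in the higher direction. EFR3B had a log2 change of 0.31 (SE 0.19), with overlapping groups, and ranked 493. The same-numbered pairs of EFR3B gave 1.14-fold, 1.47-fold and 1.13-fold. Whether the response of the genes to SEL201 differs from one to the other was not tested.

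Values with the combination are descriptive in the same way. TEX14 was 8.003-fold higher in COMBO than in UNTREATED (log2 3.001, SE 0.18), the largest rise of all 8579 genes, and the gene ranked just below it was AP000692.2 at 7.90-fold. EFR3B was 4.99-fold higher (log2 2.32, SE 0.18) and ranked 8, between SESN3 at 5.003-fold and TBX10 at 4.87-fold. The rule set no limit in fold change. The groups did not overlap for either gene, as was the case for 30.6% of all genes in the higher direction. Within numbers the ratio was 7.36 to 8.13 for TEX14 and 4.38 to 5.97 for EFR3B.

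In COMBO against each single agent the fitted rise was larger for EFR3B than for TEX14, and whether the rises differ was not tested. Within numbers 1, 2 and 3 the log2 rise over SEL201 was 2.39, 1.57 and 2.06 for EFR3B. For TEX14 it was 1.84, 1.71 and 2.04, above EFR3B in number 2. COMBO was 4.02-fold above SEL201 for EFR3B (log2 2.01, SE 0.18), which ranked 1 of all genes, and 3.67-fold above it for TEX14 (log2 1.88, SE 0.16), which ranked 2. COMBO was above OTX015 alone by 2.04-fold for EFR3B (log2 1.03, SE 0.17, rank 2) and by 1.68-fold for TEX14 (log2 0.75, SE 0.15, rank 6). In these 2 contrasts 23.4% and 12.2% of all genes were higher in COMBO without overlap, as both genes were.

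The fitted COMBO change lay below the sum of both single-agent changes for TEX14 and above it for EFR3B. Whether the genes differ in this was not tested. For TEX14 the COMBO change of 3.001 was 0.38 below the sum of 3.38 on the log2 scale (difference -0.38, SE 0.24), so that 8.003-fold compares with 10.4-fold for the sum. For EFR3B the COMBO change of 2.32 was 0.72 above the sum of 1.60 (SE 0.25), so that 4.99-fold compares with 3.03-fold. Within numbers, the difference from the sum was 0.88, 0.33 and 0.94 for EFR3B, positive in all 3. For TEX14 it was -0.68, -0.48 and 0.03. These differences use the libraries that chose the genes and are given without a test. The SEL201 change of EFR3B, which enters its sum, came from groups that overlapped.

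**Figure D2:**
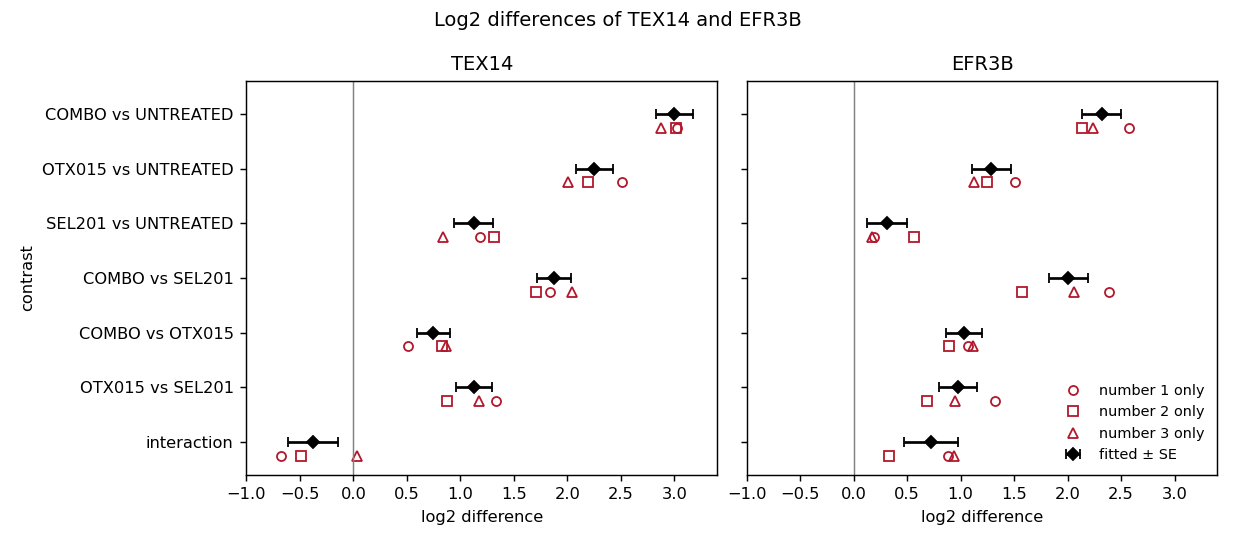
Log2 differences of TEX14 (left) and EFR3B (right) for each contrast, with the fitted value ± SE as black diamonds and the same difference within each library number as open symbols. The interaction, the distance of the COMBO change from the summed single-agent changes, is -0.38 for TEX14 and 0.72 for EFR3B.

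The genes nearest to each in pattern were found from the root mean square difference of log2 CPM over the 12 libraries, each gene centred on its own mean. This is a description, and all such values share the same libraries and depths. Among the genes nearest to TEX14 were TBX10, a T-box transcription factor gene, and SESN3, a sestrin gene, at 0.30 each, NXN, which encodes nucleoredoxin, at 0.34 and SYT12, a synaptotagmin gene, at 0.37. In COMBO against UNTREATED they were higher by 2.28 (TBX10) to 2.58 (NXN) on the log2 scale. In each of these 4 the COMBO change differed from its own single-agent sum by -0.76 (SYT12) to -0.47 (SESN3) on the log2 scale. TEX14 itself was at -0.38 (SE 0.24). The 4 genes were picked for likeness to TEX14 in these same libraries, so a similar difference is partly built in.

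Nearest to EFR3B were the histone gene HIST1H2BD at 0.30, STOX1 and the histone gene HIST2H2BE at 0.35 each, and SESN3 and FAM46C at 0.36 each. In COMBO against UNTREATED they rose less than EFR3B or about as much, from 2.97-fold for HIST2H2BE to 5.003-fold for SESN3. Against the single-agent sum HIST1H2BD was at 0.20 and HIST2H2BE at 0.22, while STOX1 (-0.25), FAM46C (-0.40) and SESN3 (-0.47) were below it. TEX14 and EFR3B differed from each other by 0.39, which made EFR3B the gene ranked 8 for TEX14 and TEX14 the gene ranked 9 for EFR3B.

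**Figure D3:**
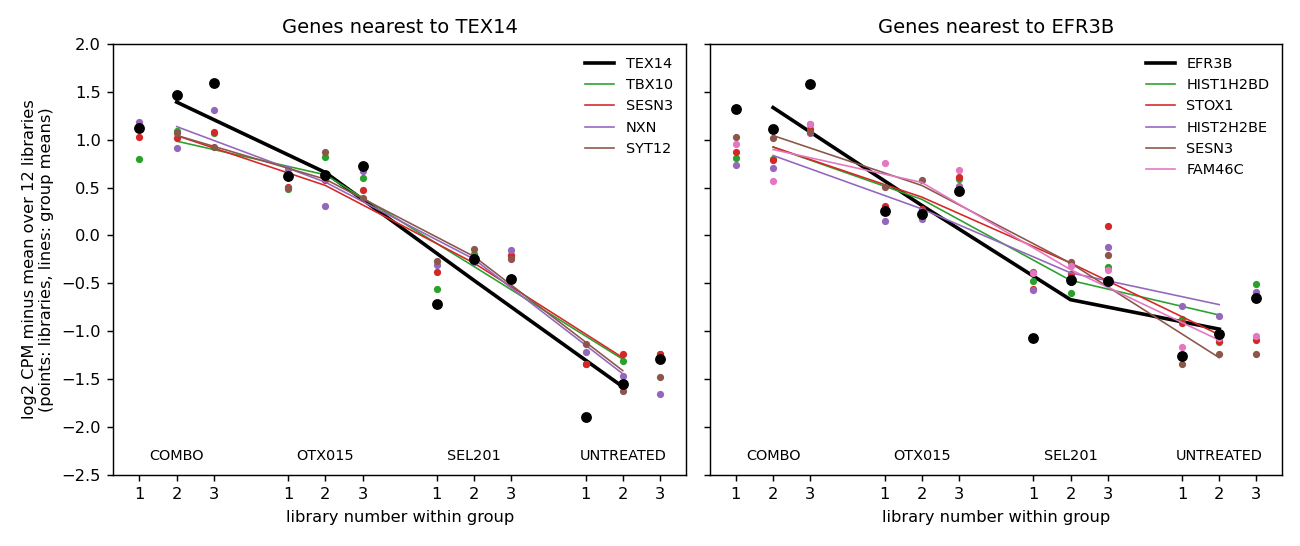
Log2 CPM minus its mean over the 12 libraries for TEX14 (left, black) and EFR3B (right, black) with 4 of the genes nearest to TEX14 and the 5 named genes nearest to EFR3B (colours), with points for libraries and lines through group means. EFR3B lies above its nearest genes in COMBO and below them in SEL201 number 1.

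Of the PI4KA complex that EFR3 proteins anchor, 4 of the 7 listed genes besides EFR3B were measured, with log2 changes of -0.57 to 0.47 in COMBO against UNTREATED. With COMBO against UNTREATED 2 rose and 1 fell, where 28.3% of all genes were called higher and 29.6% lower (median log2 change 0.20 in the list, 0.00 over all genes). TMEM150A, which encodes a membrane partner of the complex, was at 103 ± 1.46 CPM in COMBO and 74.1 ± 4.30 in UNTREATED (log2 0.47, SE 0.06, edgeR adjusted p = 1.3e-05). FAM126B, the gene of a scaffold subunit, was at 141 ± 13.3 CPM in COMBO and 112 ± 3.03 in UNTREATED (log2 0.33, SE 0.07, edgeR adjusted p = 0.0013).

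Of the scaffold genes TTC7A and TTC7B, TTC7B was called. It fell to 78.6 ± 4.16 CPM in COMBO, against 117 ± 2.72 in UNTREATED (log2 -0.57, SE 0.06, edgeR adjusted p = 2.9e-06). TTC7A was at 279 ± 8.19 CPM in COMBO and 265 ± 22.7 in UNTREATED (log2 0.07, edgeR adjusted p = 0.32). With OTX015 alone, where 23.3% of all genes were called higher and 24.7% lower, TMEM150A (0.39) and FAM126B (0.25) also rose and TTC7B (-0.51) fell, with edgeR adjusted p-values of 0.00013, 0.01 and 1.6e-05. With SEL201 alone, where 10.1% of all genes were called higher and 11.1% lower, 0 of the 4 changed by edgeR and 0 by DESeq2, and 1 was higher at an unadjusted p under 0.05. FAM126B was called with the replicate block. EFR3A, PI4KA and FAM126A were not analysed here.

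Of 56 other listed phosphoinositide genes 17 were measured, and with COMBO against UNTREATED 8 rose and 5 fell (median log2 change 0.17), where 28.3% of all genes were called higher and 29.6% lower. PLCB4, a phospholipase C gene, rose to 319 ± 40.4 CPM in COMBO, against 138 ± 9.27 in UNTREATED (log2 1.20, edgeR adjusted p = 5.2e-08). PIK3R3, a regulatory subunit of PI 3-kinase, rose by 0.96 (edgeR adjusted p = 2.4e-10) and FIG4, a phosphoinositide phosphatase gene, by 0.47 (edgeR adjusted p = 2.9e-05). PITPNM3, of the phosphatidylinositol transfer protein family, fell by 1.17 (edgeR adjusted p = 1.5e-05). OTX015 alone also gave 8 higher and 5 lower, where 23.3% of all genes were called higher and 24.7% lower. SEL201 alone gave 4 higher and 1 lower, where the shares over all genes were 10.1% and 11.1%, or 7 and 1 with the replicate block and 2 and 1 without the number 3 libraries.

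Of 71 listed germ cell and testis genes 28 were measured, and with COMBO against UNTREATED 8 rose and 9 fell, with a median log2 change of 0.02. These counts are near the shares over all genes, of which 28.3% were called higher and 29.6% lower. PIWIL2, which encodes a germline Piwi protein, was at 7.83 ± 0.476 CPM in COMBO and 3.75 ± 1.23 in UNTREATED (log2 1.05, edgeR adjusted p = 0.00066). This gene was named after its values were seen, as the largest rise in the list. By lowest p the list was led by SPATA6 (0.45, edgeR adjusted p = 3.4e-07), the Tudor domain genes TDRD3 (-0.44, adjusted p = 1.3e-06) and TDRKH (0.51, adjusted p = 2.7e-06), and SPATA2L (0.75, adjusted p = 6.7e-06).

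With OTX015 alone 8 germ cell and testis genes rose and 8 fell, or 4 and 6 without the number 3 libraries, where 23.3% of all genes were called higher and 24.7% lower. With SEL201 alone, where 10.1% of all genes were called higher and 11.1% lower, 3 rose and 0 fell by edgeR (0 also at an unadjusted p under 0.05 and by DESeq2). The 5 other measured genes with a TEX symbol share a name and not a sequence family. With COMBO against UNTREATED, where 28.3% of all genes were called higher and 29.6% lower, TEX2 (0.66, edgeR adjusted p = 1.2e-08) and TEX30 (0.36, adjusted p = 0.00079) rose. TEX19 (0.42), TEX9 (0.18) and TEX15 (-0.11) were not past the threshold, with edgeR adjusted p-values of 0.15, 0.13 and 0.34.

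Of 21 listed genes of the cytokinetic bridge besides TEX14, CHMP4C, an ESCRT-III gene, was measured. It was at 29.4 ± 1.14 CPM in COMBO and 34.4 ± 2.24 in UNTREATED (log2 -0.23, edgeR adjusted p = 0.027), and it was not past the threshold without the number 3 libraries. CEP55 was not analysed here. Of 29 kinetochore and spindle checkpoint genes 5 were measured. With COMBO against UNTREATED 2 rose and 2 fell, where 28.3% of all genes were called higher and 29.6% lower. NSL1 (0.24, edgeR adjusted p = 0.00028) and PMF1 (0.18, adjusted p = 0.0058) rose, while SPC25 (-0.26, adjusted p = 0.0019) and CENPA (-0.16, adjusted p = 0.0045) fell. NDC80 (0.02, edgeR adjusted p = 0.73) was not past the threshold.

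Among the 5 annotated genes on each side of EFR3B in RefSeq, DNAJC27 and DNMT3A were measured. DNAJC27, the gene of a Rab-like GTPase, was at 33.1 ± 1.84 CPM in COMBO and 29.7 ± 2.64 in UNTREATED (log2 0.16, edgeR adjusted p = 0.16). DNMT3A, a DNA methyltransferase gene, was at 57.4 ± 4.33 CPM in COMBO and 67.8 ± 8.71 in UNTREATED (log2 -0.24, edgeR adjusted p = 0.038). Over all genes, 28.3% were called higher and 29.6% lower in COMBO against UNTREATED. The 10 neighbours of TEX14 were not analysed here.

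**Figure D4:**
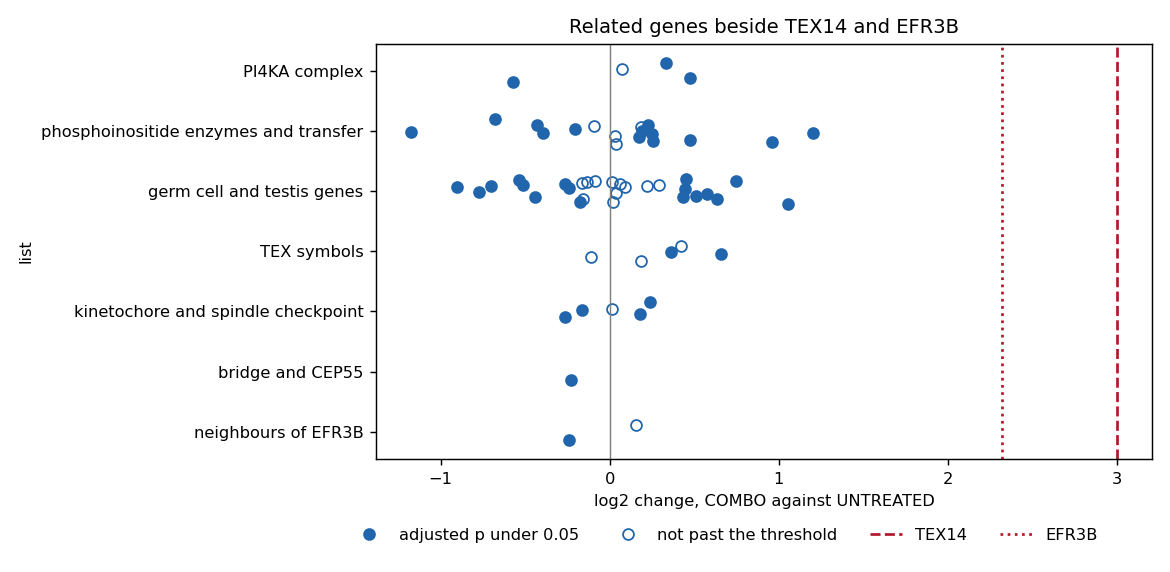
Log2 change of COMBO against UNTREATED (x axis) for each measured gene of 7 lists (rows), filled where the edgeR adjusted p was under 0.05, with vertical lines at TEX14 and EFR3B. The listed genes lie between -1.17 (PITPNM3) and 1.20 (PLCB4), below EFR3B at 2.32 and TEX14 at 3.001. Both members were chosen for large rises in this contrast, so their place above the lists follows from that choice.

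As a check of the label, 11 of 18 listed melanocyte lineage genes were measured, with a summed level of 792 to 807 CPM in COMBO, 824 to 841 in OTX015, 845 to 874 in SEL201 and 982 to 1048 in UNTREATED. GPNMB had the highest mean of the 11 in every group, at 213 CPM in COMBO and 443 in UNTREATED. The fall of the sum is thus not a fall of the list as a whole. MITF, the lineage transcription factor gene, averaged 154 CPM in COMBO and 173 in UNTREATED, while PMEL and MLANA averaged under 7 CPM in every group. SOX10, TYR and DCT were not analysed here. In COMBO against UNTREATED 3 of the 11 lineage genes rose and 4 fell, where 28.3% of all genes were called higher and 29.6% lower. GPNMB (-1.06), MLPH (-2.02) and RAB27A (-0.54) fell and S100B rose (0.94), with edgeR adjusted p-values of 1.3e-08, 5.2e-08, 6.1e-05 and 3.4e-06. PAX3 (0.22, edgeR adjusted p = 0.0018) and MLANA (0.64, adjusted p = 0.0069) also rose and MITF also fell (-0.17, adjusted p = 0.03). Of 4 markers of undifferentiated melanoma NGFR was measured and was at -0.73 (edgeR adjusted p = 0.014). Of 19 listed markers of other cell types 6 were measured (KRT8, LUM, DCN, PDGFRA, PDGFRB and SNAP25). Their summed level was 184 to 198 CPM in COMBO, 214 to 224 in OTX015, 242 to 267 in SEL201 and 337 to 369 in UNTREATED, and its part in the results was not tested. The sum hides opposite changes in COMBO: KRT8 (-1.02), LUM (-2.55), DCN (-2.41) and PDGFRB (-0.71) fell, with edgeR adjusted p-values of 1.4e-09, 4.3e-09, 2.9e-07 and 1.4e-05. PDGFRA (0.49, edgeR adjusted p = 0.0086) and SNAP25 (0.49, adjusted p = 0.02) rose. In bulk RNA, more cells that express a gene and more RNA per cell cannot be told apart.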

How the data were processed

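RNA of 12 A375 libraries was sequenced as stranded poly(A) paired-end reads of 150 bases, per the labels' protocols. The authors deposited raw counts per gene symbol. Per the submitters' processing notes, the build was hg19 and the tools were STAR 2.5.4b, featureCounts, SAMtools 1.9, Trimmomatic, FastQC and DESeq2. The sources used here give no annotation, strand setting or gene filter. The table holds 8579 genes with mean counts of 78.67 to 9158.7, and totals of 15146071 to 24111541 are over these genes, not the sequencing depth.

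From the counts, edgeR 4.0.16 in R 4.3.3 was run with TMM scaling, filterByExpr (which kept all 8579 genes), group means for all 12 libraries, glmQLFit, glmQLFTest and Benjamini-Hochberg adjustment. SE is the size of the log2 change over the root of the F statistic. CPM means carry SDs, and log2 CPM used a prior count of 2. Steps were tested on simulated counts that held no shared deviation by library number. The error rate of the tests under such a deviation was not checked. Members, lists and tests were chosen with earlier results of these data known. Named genes are both members, the 5 nearest to each, the neighbours in rank, and all measured genes of the PI4KA, bridge and neighbour lists. From other lists up to 4 of lowest p are named, and some further measured genes beside them. Clone-based, LOC, antisense and unnamed genes were skipped in taking the 5 nearest, so the gene nearest to TEX14 is not among them. Ranks of likeness count all genes. Deviations from group means correlated across genes between same-numbered libraries (r 0.263 to 0.574 in 18 pairs, against -0.462 to 0.194 in 36 others). The pairing by number is read from these values, since no label states it. Alternatives were RLE size factors, DESeq2 1.42.0, other filters, the replicate block, compared groups only, each library left out and no number 3 libraries. The planned tests of both members against UNTREATED are given as descriptions, since these libraries entered their choice. Promoter windows are from RefSeq. One gene near TEX14 in pattern is not reported here.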

Additional observations from a re-analysis of the deposited data

Results flagged for a closer look

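KRT8, a keratin gene measured here as an epithelial marker, was at 97.7 ± 4.48 CPM in COMBO, 112 ± 4.23 in OTX015, 123 ± 3.26 in SEL201 and 199 ± 5.59 in UNTREATED (SD, n = 3 each). Its COMBO change lay above the sum of both single-agent changes by a log2 difference of 0.49 (SE 0.07; edgeR adjusted p = 0.011 for the interaction), so the effect of one agent differed with the presence of the other.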

How the results depend on the processing

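Of 264 values recomputed for TEX14 and EFR3B, 263 were counted as unchanged. They kept their direction and their side of the threshold, or moved by less than the spread between replicates where the threshold was not used. That spread is the root of the summed variances of log2 CPM in the groups compared. For such values, leaving out 1 of 3 libraries can hardly move the change that far. The fit with no filter was the same fit, since the filter kept all genes. These parts of the count could hardly differ, and they say nothing on stability. The exception was EFR3B with SEL201 against UNTREATED, which crossed the threshold with the replicate block, at 0.318. Single-agent contrasts against UNTREATED were set against the threshold for this count only. Since the UNTREATED libraries entered the choice of both genes, no call is made there, and that part of the count is not a test. For EFR3B with SEL201 against UNTREATED, leaving out single libraries gave 0.183 to 0.496. With the replicate block more genes were called: 1541 higher and 1639 lower with SEL201 against UNTREATED, 1604 and 1810 with OTX015 against SEL201, 861 and 1047 with COMBO against OTX015 (249 and 344 without it) and 345 and 234 for the interaction (18 and 6 without it). COMBO against OTX015 had 223 lower when only these groups were fitted, and 106 to 276 higher and 198 to 371 lower when 1 library was left out. The interaction had 87 higher and 32 lower with DESeq2, 57 and 15 without the number 3 libraries, and 4 to 18 and 0 to 5 with 1 library left out. The 0 came without UNTREATED replicate 2, by edgeR, with 294 lower at an unadjusted p under 0.05. With the replicate block both genes stayed past the threshold in OTX015 against SEL201, the contrast in which they were tested. Why the block moved other results was not tested. Of the 5 genes nearest to TEX14, 1 stayed when likeness was Pearson r and 5 without the number 3 libraries; for EFR3B these were 1 and 3, and a prior count of 0.5 kept all 5 for both. In the UNTREATED libraries 66 to 88 counts limit the precision of TEX14.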
